A study of Mus musculus with 2 samples.

Results

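The cells described here are 79 of the 13683 thymus cells of a single-cell RNA sequencing study of mice that lack Cdc42, a small GTPase that organises the cytoskeleton, in T cells. They were chosen as the cells that the authors' deposited clustering (Seurat, resolution 1.5) put in cluster 16, and no expression value was used again to pick them. The cluster is called macrophage-like from Apoe, C1qa, C1qb, C1qc and Lyz2, genes that the clustering itself could use. Of the 79 cells, 75 held at least 1 UMI (a unique molecular identifier, the tag that counts 1 captured transcript) of a C1q gene. The WT library pooled the thymi of 5 mice with the floxed alleles alone (Cdc42f/f), and the KO library those of 5 littermates that also carried CD4Cre (Cdc42f/f CD4Cre). All mice were 6 weeks old. This Cre acts from the CD4+CD8+ double positive (DP) stage of thymocytes on and removes exon 2 of Cdc42, and whether it acted in the macrophage-like cells was not tested. With 1 pooled library per condition, no difference between WT and KO has a replicate check and no test was made. All intervals below are exact 95% intervals for counting error alone, and they do not cover differences between mice. The labels call all cells thymocytes, although the tissue was a whole thymus suspension after red cell lysis.

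Macrophages of the thymus take up and digest the thymocytes that die during selection. They tag and bind dying cells through C1q, an opsonin of the complement system, and through receptors for phosphatidylserine such as Tim-4 (Timd4), Axl and Mertk. They degrade the cargo in lysosomes and export the lipid and iron that it leaves behind, with ApoE carrying cholesterol and ferroportin (Slc40a1) releasing iron. Thymic macrophages are known to hold a Timd4-positive and a Cx3cr1-positive subset. Because they engulf thymocytes, thymocyte transcripts can be read in macrophage droplets, and the same transcripts can also reach a droplet as free RNA or as a second cell.

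The 3 C1q genes, whose products form 1 hexameric protein, lie side by side on the minus strand of mouse chromosome 4 between 136880129 and 136898803 (GRCm38), in the order C1qb, C1qc and C1qa. UMIs of all 3 were found together in 67 of the 79 cells, 6 cells had UMIs of a pair of them and 2 cells of a single one. The promoters of C1qb and C1qc are shown because both genes, with C1qa, are the markers that were nearly absent from other cells. They are RefSeq windows of 300 bases on GRCm38.p6, from 250 bases before to 50 bases after the start site, 5′ to 3′ on the gene's strand, and a window of C1qa was not used here. Capitals mark matches on either strand to GAGGAA, the core bound by the myeloid factor PU.1, and to TGCTGA, a motif of MAF family factors.
C1qb, chr4:136886151-136886450, minus strand: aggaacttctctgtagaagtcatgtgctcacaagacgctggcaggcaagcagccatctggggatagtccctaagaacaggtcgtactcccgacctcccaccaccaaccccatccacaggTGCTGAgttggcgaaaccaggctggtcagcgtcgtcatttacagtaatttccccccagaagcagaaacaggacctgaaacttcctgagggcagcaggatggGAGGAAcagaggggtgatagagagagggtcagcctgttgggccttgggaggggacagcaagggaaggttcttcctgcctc
C1qc, chr4:136892865-136893164, minus strand: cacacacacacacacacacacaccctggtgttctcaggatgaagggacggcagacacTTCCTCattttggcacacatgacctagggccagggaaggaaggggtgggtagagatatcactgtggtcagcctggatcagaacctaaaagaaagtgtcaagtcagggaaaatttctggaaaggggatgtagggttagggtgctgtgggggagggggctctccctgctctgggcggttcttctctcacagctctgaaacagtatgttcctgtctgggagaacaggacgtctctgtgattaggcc

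The C1qb window held both motifs, with GAGGAA 30 bases before the start site. The C1qc window held GAGGAA on the opposite strand, printed there as TTCCTC, and no TGCTGA on either strand. Of 32851 RefSeq windows of this length, 28.3% held GAGGAA on either strand, 19.5% held TGCTGA and 5.36% held both, so a match of either motif alone is common. Spi1, which encodes PU.1, had 14 WT and 32 KO UMIs, and Maf had 8 and 32.

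Cluster 16 held 30 of 6115 WT cells, or 0.491% (0.331 to 0.700), and 49 of 7568 KO cells, or 0.647% (0.479 to 0.855). The KO share was 1.32 times the WT share, with an interval of 0.821 to 2.15 that includes equality. The same 79 cells formed 1 cluster at resolution 1.8, and at resolution 2 they were joined by 7 more. Across the other 18 clusters, 22 cells had at least 3 C1q UMIs, 7 of them in cluster 15, whose leading genes are those of B cells and of antigen presentation. Of 17 cell barcodes that occurred in both libraries, 0 were in cluster 16.

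The cells were shallow. In WT the totals ran from 531 to 13049 UMIs with a median of 875, and in KO from 500 to 9833 with a median of 695, whereas the medians of all cells were 3192 and 3401. The deepest WT cell alone supplied 30.9% of the 42283 UMIs of the WT cells, and the deepest KO cell 13.8% of the 71290 UMIs of the KO cells. The median mitochondrial share was 2.77% and 2.92%, against 5.39% and 5.52% in all cells. Single cells can therefore move a sum, and results that rest on them are given with and without these cells.

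1 KO cell was led by other genes. With 5863 UMIs it held 1032 of S100a9, 866 of S100a8, 141 of Retnlg, 18 of Lcn2 and 14 of Cxcr2, genes of granulocytes. Of the 5 markers it held 20 Lyz2 UMIs, and 0 of C1q and Apoe. It supplied every S100a8 and S100a9 UMI of the cluster, and the WT cells had 0 of both. The other 3 cells without C1q and Apoe UMIs were shallow, with 551 to 667 UMIs.

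Apoe was the most abundant of the 5 markers. Its summed level was 17029 CPM (UMIs per 1000000 UMIs of the cluster), against 782 CPM in cluster 15, the next in order, and a median of 28.4 CPM over the other clusters. The levels of C1qb, C1qa and C1qc were 4702, 4561 and 3425 CPM, and cluster 15, again the next, had 70.1 to 93.9 CPM. Lyz2, which encodes the lysozyme of myeloid cells, was at 5195 CPM. Here the next cluster was 8, with 599 CPM from 0.649% of its 616 cells. Cluster 16 stood highest for all 5 genes, and by at least 8 times in the plot of markers by cluster. Apoe and C1q were found in the same cells, since 70 cells had UMIs of both, 5 had C1q without Apoe and 0 had Apoe without C1q.

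**Figure D1:**
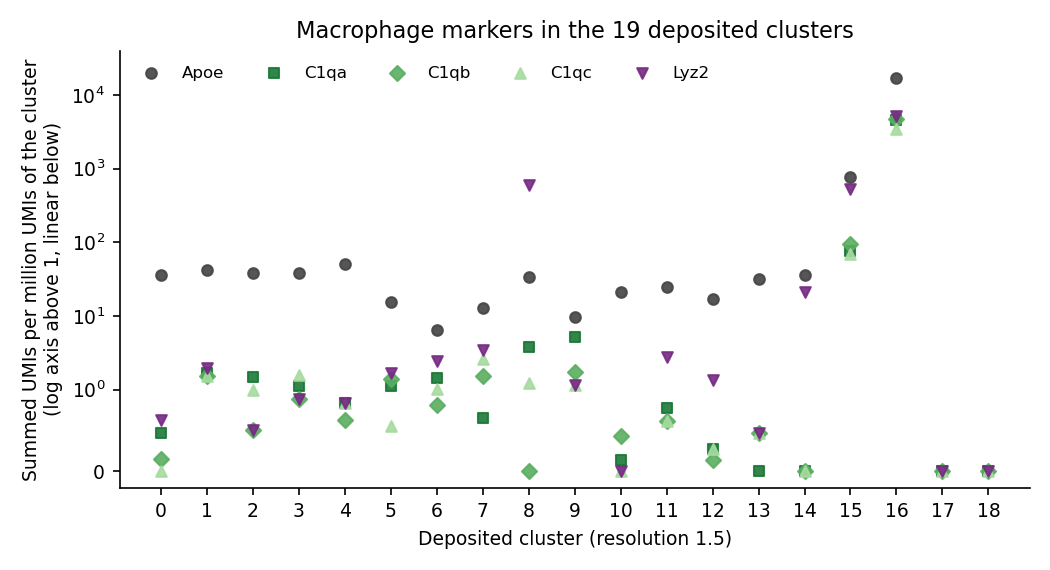
Summed level of Apoe, C1qa, C1qb, C1qc and Lyz2 (CPM, log axis above 1) in each of the 19 deposited clusters, both libraries together. Cluster 16 is highest for all 5 genes, with Apoe at 17029 CPM, and cluster 15 follows for all but Lyz2.

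Cell by cell, C1qa was found in 92.4% of the cells, C1qb in 92.4%, C1qc in 87.3%, Apoe in 88.6% and Lyz2 in 73.4%. DP cells, with median depths of 2823 (WT) and 3097 (KO) UMIs, were set beside them. There C1qa was found in 0.193% of WT and 0.302% of KO cells, and Apoe in 10.97% and 9.87%. Apoe was thus read widely in the DP cells, at 44.9 and 38.3 CPM, and C1q hardly at all. The reading of Apoe varied between thymocyte clusters, with 15.3% of the cells of cluster 4, 1.76% of cluster 6 and 27.4% of cluster 11. Whether these UMIs were free RNA, attached cells or expression by the thymocytes was not tested.

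The amount of each marker followed the depth of the cell. C1q UMIs ran from 0 through a median of 16 to 180 in WT cells, and from 0 through 7 to 126 in KO cells. Apoe UMIs ran from 0 through 13 to 181 in WT and from 0 through 11 to 195 in KO. As a share of the cell's UMIs, C1q had a median of 1.45% in WT and 1.01% in KO, and Apoe 1.32% and 1.498%. The ranges of both libraries overlapped almost entirely.

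**Figure D2:**
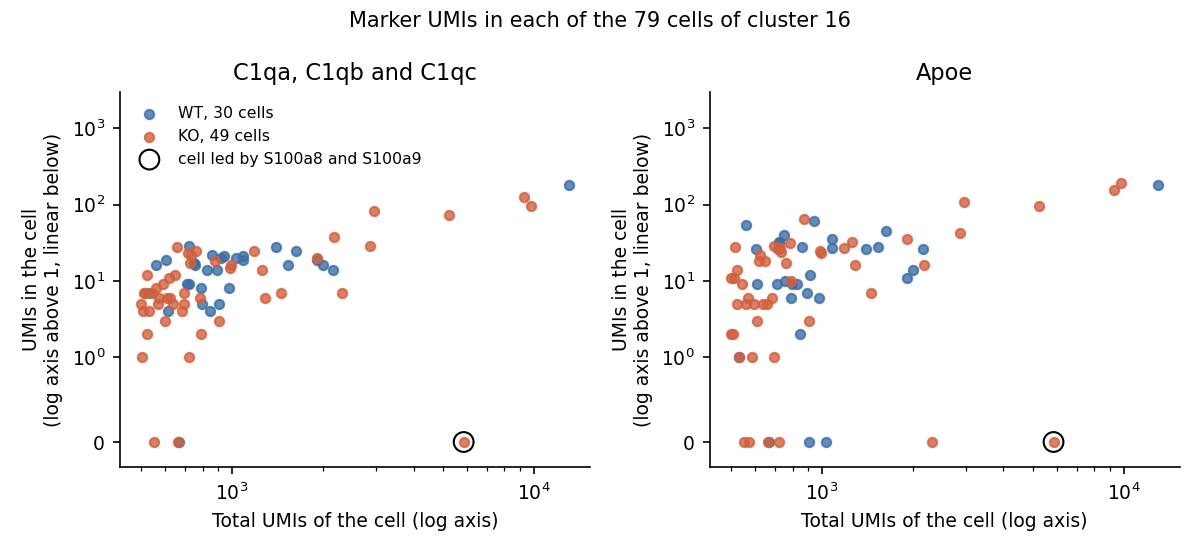
UMIs of the 3 C1q genes (left) and of Apoe (right) against total UMIs in each of the 30 WT and 49 KO cells, on log axes. Most cells lie between 500 and about 1000 total UMIs, and the circled KO cell led by S100a8 and S100a9 has 0 UMIs of both.

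The leading genes of the cluster were those of a tissue macrophage. Ranked by the mean over cells of UMIs per 10000 in cluster 16 over that in all other cells, among genes seen in at least 10% of the cells, the first 20 were Fcna, Trem2, Igf1, Chp2, Itgb5, Ear2, Ccl8, Tmem26, C1qb, Apoc1, Clec1b, Mrap, Pla2g2d, Mrc1, Lpl, C1qa, Timd4, C1qc, Adgre1 and Wfdc17. They include pattern recognition and uptake molecules (ficolin A, TREM2, the mannose receptor Mrc1, Tim-4), lipid genes (Apoc1, Lpl, Pla2g2d) and Adgre1, which encodes F4/80. Igf1, a growth factor, was the most widely seen of the first 8, with 119 UMIs over 48 of the 79 cells and 17 UMIs in the 13604 other cells. Trem2 had 12 UMIs and Fcna 17, with 1 UMI each elsewhere. As the clustering used these genes, their order is a description.

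All 22 genes of a macrophage identity list that were seen in at least 10% of the cells were at least 10 times as high as in the other cells, where 13.5% of the 1721 genes seen that often were. The list includes the markers that named the cluster, and its genes were kept by their detection in these cells. The count is therefore a description and no separate support for the name. The list made up 5.65% of the UMIs of the WT cells and 4.71% of those of the KO cells, beside 0.00737% and 0.00732% in DP cells. Tyrobp and Fcer1g, the signalling adaptors of myeloid receptors, were at 2712 and 1928 CPM. Csf1r, the receptor for the growth factor of macrophages, was at 405 CPM and was seen in 15 cells.

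Receptors for dying cells were present at low levels. Axl had 64 UMIs in 21 cells, Timd4 32 UMIs in 21 cells, and Mertk and Trem2 12 UMIs in 9 cells each. Of 20 measured genes of this list, 16 had a UMI. All 7 seen in at least 10% of the cells were at least 10 times as high as in other cells. Of all genes seen that often 13.5% were, and the 7 were kept by their detection in cluster 16. At this depth a cell without a Timd4 UMI cannot be called negative.

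The leading lysosomal genes and the ferritin genes were far more abundant than the receptors for dying cells. Among lysosomal genes, Ctsb (cathepsin B) reached 3680 CPM, Psap (the precursor of the saposins) 3099 CPM and Ctsd 1796 CPM. All 39 genes of the lysosome list had UMIs, and thymocytes also carry many of them. Of the 32 seen in at least 10% of the cells, 14 were at least 10 times as high as elsewhere, where 13.5% of all genes seen that often were. Ferritin led the iron list, with Ftl1 at 17090 and Fth1 at 14995 CPM, and the heme genes Blvrb and Hmox1 were at 863 and 211 CPM. Slc40a1, the iron exporter, was at 634 CPM, and its 72 UMIs were near the 64 of Axl. Spic, a transcription factor of iron-recycling macrophages, was at 220 CPM.

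Markers of other cell types were sparse. Of all 20282 genes in the matrix 11248 were at 0 in these cells, so a gene at 0 is common here. Of 11 measured monocyte genes 7 were at 0, among them Ly6c2 and Ccr2, and 81 of the 94 UMIs of the list were S100a6 UMIs of the granulocyte-like cell. Of 17 dendritic cell genes 7 were at 0, among them Flt3, Xcr1 and Clec9a, and Cst3 (223 UMIs), which macrophages also express, held most of the 336 UMIs. For B cells, 7 of 12 genes were at 0 with Cd79a among them, and the list summed to 32 UMIs. The erythroid, stromal and NK lists summed to 2, 6 and 9 UMIs.

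MHC class II UMIs were concentrated in a few cells. Of the 79 cells, 39 had 0 UMIs of the 13 genes of the class II list, while 12 cells with at least 10 such UMIs held 92.8% of all 805. Of these 12 cells 7 were WT and 5 KO, or 23.3% (9.93 to 42.3) and 10.2% (3.40 to 22.2) of the cells of each library, and the intervals overlapped. The limit of 10 UMIs was set after the values were seen, and 3 cells lay within 5 UMIs below it and 5 within 5 above. With limits of 5 and 20 UMIs there were 15 and 7 such cells.

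The class II cells were macrophage-like by their other genes. All 12 had C1q UMIs, and their mean C1q level over cells was 216 per 10000 UMIs, against 124 in 66 others, the granulocyte-like cell left out. Lyz2 was at 127 per 10000 in them and at 39.7 in the others. Their median depth, 737.5 UMIs, was close to the 771.5 of the others.

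Timd4 subset UMIs were fewer in the class II cells than in the others. Summed over Timd4, Slc40a1, Spic, Vcam1, Hmox1 and Cd163, the Timd4 subset list had UMIs in 4 of the 12 class II cells and in 50 of the 66 others, and its mean over cells was 6.06 against 31.9 per 10000 UMIs. Timd4 itself was seen in 1 of the 12 and in 20 of the 66. Cx3cr1, which encodes the fractalkine receptor, was seen in 3 of the 12 and in 2 of the others, with 11 UMIs in all. Of the 4 class II cells with subset UMIs, 3 held 1 each. The other was the deepest WT cell, with 219 class II, 37 Timd4 subset and 7 Cx3cr1 UMIs, and it held all 4 Timd4 UMIs of the 12. The level of class II chose these cells, so the contrast is a description over few UMIs.

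**Figure D3:**
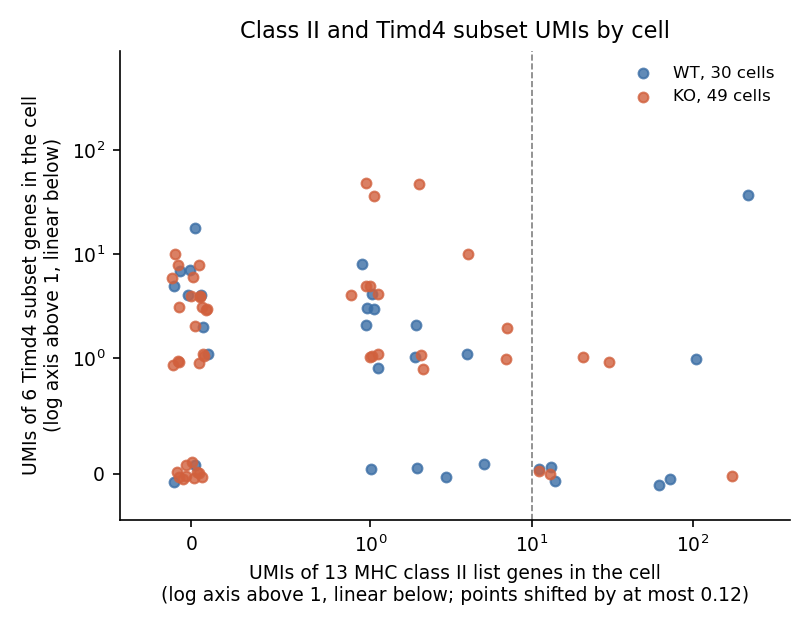
UMIs of the 13 MHC class II list genes (x) and of the 6 Timd4 subset genes (y) in each of the 79 cells, on log axes above 1, with points shifted by at most 0.12. To the right of the dashed line at 10 class II UMIs lie 12 cells, 8 of them with 0 Timd4 subset UMIs, and the deepest WT cell is at the upper right.

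Thymocyte transcripts were read in most of the cells but made up little of their RNA. Summed over 47 genes (27 expressed by thymocytes in general and 20 typical of DP cells), they held 101 UMIs or 0.239% (0.195 to 0.290) of the WT cells and 382 UMIs or 0.536% (0.483 to 0.592) of the KO cells. DP cells had 5.09% and 5.04%, and cluster 15 had 0.427% and 0.692%. In the sums the macrophage-like cells thus carried less than cluster 15, beyond counting error in both libraries. The medians over cells were alike, at 0.186% and 0.184% in cluster 16 and 0.151% and 0.187% in cluster 15. Of the 79 cells, 62 had at least 1 such UMI, and the median was 2 UMIs per cell in WT and in KO.

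A single KO cell held much of the difference between the libraries in the sum. It held 204 thymocyte UMIs among 9315, or 2.19%, along with 126 C1q and 157 Apoe UMIs, and made up 53.4% of the thymocyte UMIs of the KO cells. Its thymocyte UMIs included 26 of Trbc2 (a T cell receptor constant region), 19 of Satb1, 16 of Cd8a and Cd8b1 and 11 of Rag1 (the recombinase of DP cells). Another KO cell had 34 among 1286 UMIs, or 2.64%. Without the first of these cells the KO share was 0.287%, and with every cell thinned to 500 UMIs the shares were 0.193% in WT and 0.306% in KO. Scrublet, a doublet caller, put neither among its top scores, and whether they were pairs of cells was not tested.

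Gene by gene, 45 of the 47 had a UMI, and the median thymocyte gene stood at 8.96% of its level in DP cells. The libraries differed here, with medians of 2.05% in WT and 11.8% in KO, where 1 cell holds 53.4% of the UMIs. In cluster 15 the median was 11.2%, or 8.17% in WT and 12.8% in KO. Over both libraries Trbc1 and Trbc2 were at 4.53% and 5.29% of the DP level, Cd8b1 at 5.44%, Rag1 at 6.86%, Lck at 10.0% and Satb1 at 12.03%. Rag1 had 1 UMI in 1 WT cell and 21 UMIs in 10 KO cells, with at most 11 in 1 cell. Satb1 had 6 UMIs in 5 WT cells and 36 in 8 KO cells, with at most 19 in 1 cell. Cd4 gave 27 of the 101 thymocyte UMIs in WT and 21 of the 382 in KO. Most genes lay below 15% of the DP level, and 8 lay above it.

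Over both libraries, Ms4a6b and Cd4 were the only genes above 50% of the DP level. Ms4a6b, from 12 UMIs, was at 171%. Cd4 had 48 UMIs, 27 in WT and 21 in KO. The Cd4 level of 423 CPM was 72.9% (53.8 to 96.7) of the DP level, or 119% in WT and 48.2% in KO. Cd8a and Cd8b1 were at 8.26% and 5.44%. For each Cd8a or Cd8b1 UMI there were 1.2 Cd4 UMIs in cluster 16, 0.113 in cluster 15 and 0.106 in DP cells. As a share of the UMIs of the coreceptor genes, Cd4 was 54.5% (43.6 to 65.2) in cluster 16, 10.1% (7.65 to 13.1) in cluster 15 and 9.56% (9.41 to 9.70) in DP cells. In WT the share was 84.4% (67.2 to 94.7) and in KO 37.5% (24.9 to 51.5), and neither interval overlapped those of the other cells.

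The Cd4 UMIs were spread over 17 cells. Of these, 12 had no Cd8a or Cd8b1 UMI, at depths that often leave a gene unseen. In WT all 7 cells with Cd4 were without Cd8, and in KO 5 of 10 were. The deepest WT cell held 19 Cd4 UMIs with 0 of Cd8. Without it Cd4 was 42.0% (30.2 to 54.5) of the coreceptor UMIs, and without the KO cell rich in thymocyte UMIs as well there were 24 UMIs of Cd4 and 24 of Cd8 (interval of the share 35.2 to 64.8).

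**Figure D4:**
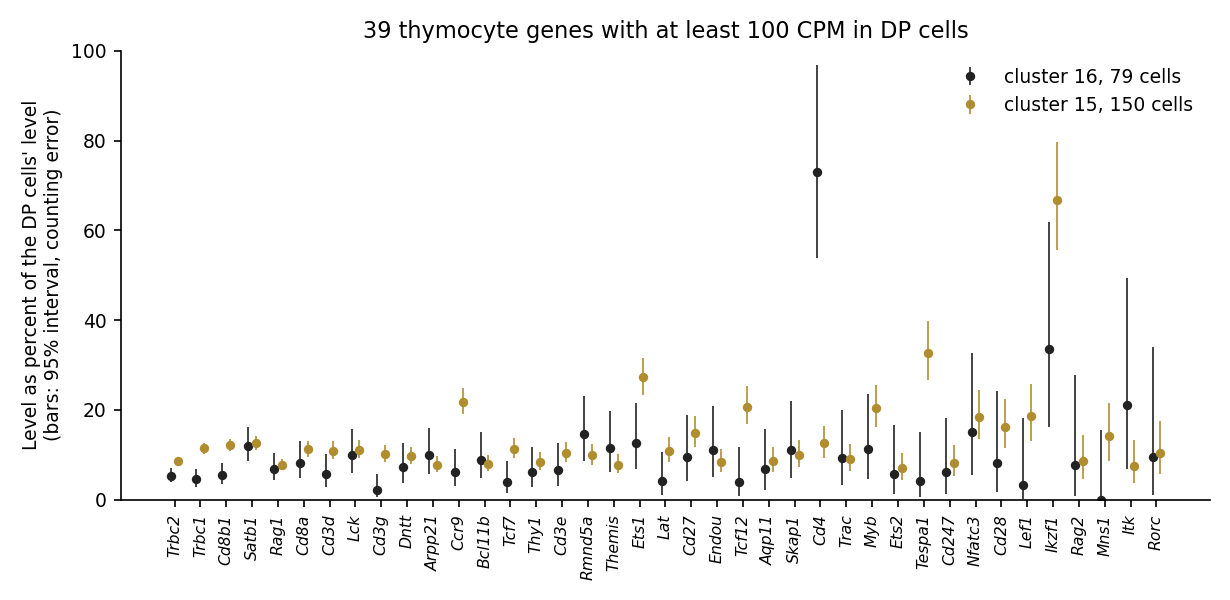
Level in cluster 16 (black) and cluster 15 (ochre) as a percent of the level in DP cells for the 39 thymocyte genes with at least 100 CPM in DP cells, with 95% counting intervals, ordered by DP level. Most genes lie under 20%. Cd4 is highest in cluster 16, at 72.9% beside 12.6% in cluster 15, and Ikzf1 is at 33.6% and 66.8%.

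KO was set beside WT with the log2 ratio of the summed UMIs per total, after 0.5 was added to each sum, for the 839 genes with at least 20 UMIs over both libraries. The median of these genes was 0.02, 8.58% were at least 2-fold higher in KO, 7.51% at least 2-fold lower and 51.3% above 0. Scaling changed this split: by total UMIs, 72 genes were at least 2-fold higher and 63 lower, while TMM factors (edgeR) and size factors (DESeq2) moved the median to 0.19 and the counts to 107 and 43. Cdc42 had 43 UMIs in WT and 64 in KO, or 1017 and 898 CPM, and its log2 ratio of -0.19 had an interval from -0.76 to 0.41. The reads cover the 3′ ends of transcripts, outside the floxed exon, so this level does not check the deletion.

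Of the 5 markers, Apoe and C1qb had intervals that include 0, and C1qa, C1qc and Lyz2 were lower in KO. Apoe stood at 17667 CPM in WT and 16650 in KO (log2 ratio -0.09, -0.22 to 0.05), and C1qb at 4848 and 4615 (-0.07, -0.33 to 0.19). C1qa and C1qc were at -0.40 (-0.65 to -0.14) and -0.43 (-0.73 to -0.14). Lyz2 was at 6953 CPM in WT and 4152 in KO (-0.74, -0.98 to -0.51), in 26 of 30 and 32 of 49 cells. Without the granulocyte-like cell the values were 0.04 for Apoe, 0.05 for C1qb, -0.27 for C1qa, -0.31 for C1qc and -0.72 for Lyz2, and with TMM factors Apoe and C1qb were also above 0. Lyz2 was at 0.06 in the 10 WT and 13 KO cells with at least 1000 UMIs, thinned to that number, and at -0.51 with all cells thinned to 500 UMIs. Without the deepest cell of each library Apoe was at -0.26 (-0.41 to -0.11) and Lyz2 at -0.51 (-0.79 to -0.23). Csf1r, with 29 UMIs in WT and 17 in KO, was at -1.51 (-2.48 to -0.61), and at -0.98 (-2.12 to 0.19) without the deepest cell of each library. Over the macrophage identity list the median was -0.25, with 15 of 18 genes below 0 where 48.7% of all genes were, and it was -0.08 with TMM factors, where the median of all genes is 0.19.

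Over all cells, class II genes had the lowest ratio of summed UMIs among the macrophage lists, at -1.63 (-1.84 to -1.42). This order rested on the granulocyte-like cell. Without that cell the ratio was -1.50 for class II genes and -1.69 for interferon response genes, which were at -1.15 over all cells. The WT cells held 521 class II UMIs and the KO cells 284, and all 4 class II genes with enough UMIs were at least 2-fold lower in KO. H2-Aa, an alpha chain, was at 2720 CPM in WT and 757 in KO (-1.84, -2.34 to -1.37), H2-Ab1 at 2129 and 786 (-1.43, -1.95 to -0.94), and H2-Eb1 at 1514 and 673 (-1.16, -1.74 to -0.61). Cd74, the invariant chain, was at 5203 and 1515 CPM (-1.78, -2.13 to -1.44). The median of the list was -1.61, and -1.48 without the granulocyte-like cell. These UMIs came from few cells: H2-Aa was seen in 8 WT and 7 KO cells, the deepest WT cell held 42.0% of the WT class II UMIs, and 1 KO cell held 62.0% of the KO ones. Without the deepest cell of each library the list median was -1.13, with all 4 genes below 0 and 2 at least 2-fold lower. This step took away 219 WT class II UMIs and 1 KO one, so it was 1-sided. The KO cell with 176 class II UMIs was not the deepest and stayed in. Without that cell the KO cells held 108 class II UMIs.

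Lysosomal genes were also lower in KO in the sum. Of 29 genes 23 were below 0, where 48.7% of all genes were, and the list median was -0.60. Psap was at 4919 CPM in WT and 2020 in KO (-1.28, -1.60 to -0.97), Ctsb at 4517 and 3184 (-0.51, -0.79 to -0.22), and Ctsd at 2341 and 1473 (-0.67, -1.08 to -0.26). In the deepest WT cell lay 46.2% of the WT UMIs of the list and 113 of the 208 Psap UMIs. Without the deepest cell of each library the median was -0.18, close to the -0.12 of all genes, with 20 of 29 below 0 where 58.6% of all genes were. The ratio was then -0.59 (-0.98 to -0.19) for Psap, -0.18 for Ctsb and -0.03 for Ctsd.

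Interferon response genes had a median of -1.61, with 6 of 8 at least 2-fold lower in KO, where 7.51% of all genes were. Bst2, which tethers budding virus, had 33 UMIs in WT and 21 in KO (-1.39, -2.27 to -0.57), and Isg15, a ubiquitin-like protein, 17 and 6. The deepest WT cell held 16 of the Bst2 UMIs. Without the deepest cell of each library Bst2 was at -0.92 (-1.93 to 0.12), an interval that includes 0. Ifitm3 was higher in KO through the granulocyte-like cell, which held 21 of its 28 UMIs. Without the deepest cells the median was -0.88, and 3 of 8 genes were at least 2-fold lower, where 7.39% of all genes were. In cells thinned to 1000 UMIs the median of the list was -0.26, beside -0.14 for all genes, and Bst2 was at -0.14. Cxcl10 and Cxcl16, chemokines for activated T cells, had 28 and 22 UMIs in WT and 9 and 7 in KO.

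Iron and heme genes were higher in KO in the sum of all cells. All 8 genes with enough UMIs were above 0, where 51.3% of all genes were. The median was 0.55, or 0.67 without the granulocyte-like cell. Ferroportin, Slc40a1, had 10 UMIs in 5 WT cells and 62 UMIs in 20 KO cells, or 236.5 and 869.7 CPM (1.82, 0.90 to 3.01). With every cell thinned to 500 UMIs it was seen in 2 WT and 13 KO cells. Ftl1 was at 15491 and 18039 CPM (0.22, 0.08 to 0.36), and at -0.07 without the deepest cell of each library. Without these cells, 4 of the 8 genes were above 0, where 347 of all 839 genes were. The median was then 0.05, while Slc40a1 stayed at 1.65 (0.59 to 3.12).

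Macrophage transcription factors had a median of 0.95 over 7 genes, and 0.80 without the deepest cells. The value turned with the filter on low counts, at 0.30 for genes with at least 50 UMIs and -0.62 for all genes with a UMI, and it was 0.19 in cells thinned to 500 UMIs. The ratio of the summed UMIs of the list was 0.17 (-0.15 to 0.49). Maf, a transcription factor of tissue macrophages, had 8 UMIs in 4 WT cells and 32 in 11 KO cells (1.18, 0.10 to 2.58), and Spic had 5 and 20 UMIs. Irf8, a factor of myeloid and dendritic cells, was at -0.62 (-1.37 to 0.15). The Timd4 subset list had a median of 1.07 over 5 genes, of which Timd4 itself was at -0.40 (-1.48 to 0.73) and Vcam1 at -0.30 (-0.74 to 0.15). The 3 above 0 were Slc40a1, Spic and Hmox1, which are also on the iron list, so these lists are not separate observations.

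Lipid genes had 5 of 10 above 0, where 51.3% of all genes were, and a median of 0.05, or -0.14 without the deepest cells. Apoc1 was at 0.35 (-0.03 to 0.74), and at -0.11 without them. Fc and scavenger receptors had 4 of 8 above 0. Cytokine receptors had a median of -0.45, with 3 of 4 below 0, and receptors for dying cells -0.31, with 2 of 3 below 0. Of all genes 48.7% were below 0, and lists this short say little. The median and the sum differed in sign for the Cx3cr1 subset list, at 0.44 over 3 genes and -0.49 (-0.87 to -0.10), and for the lipid list, whose sum was at -0.02. The complement list, which includes C1q, had a median of -0.40, with 4 of 5 below 0. Its other genes had few UMIs, with Cfp (properdin) at 14 and 49 and C3 at 28 and 11. Actb, the cytoskeletal beta-actin, was at 0.37 (0.19 to 0.56), and at 0.08 without the deepest cells.

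**Figure D5:**
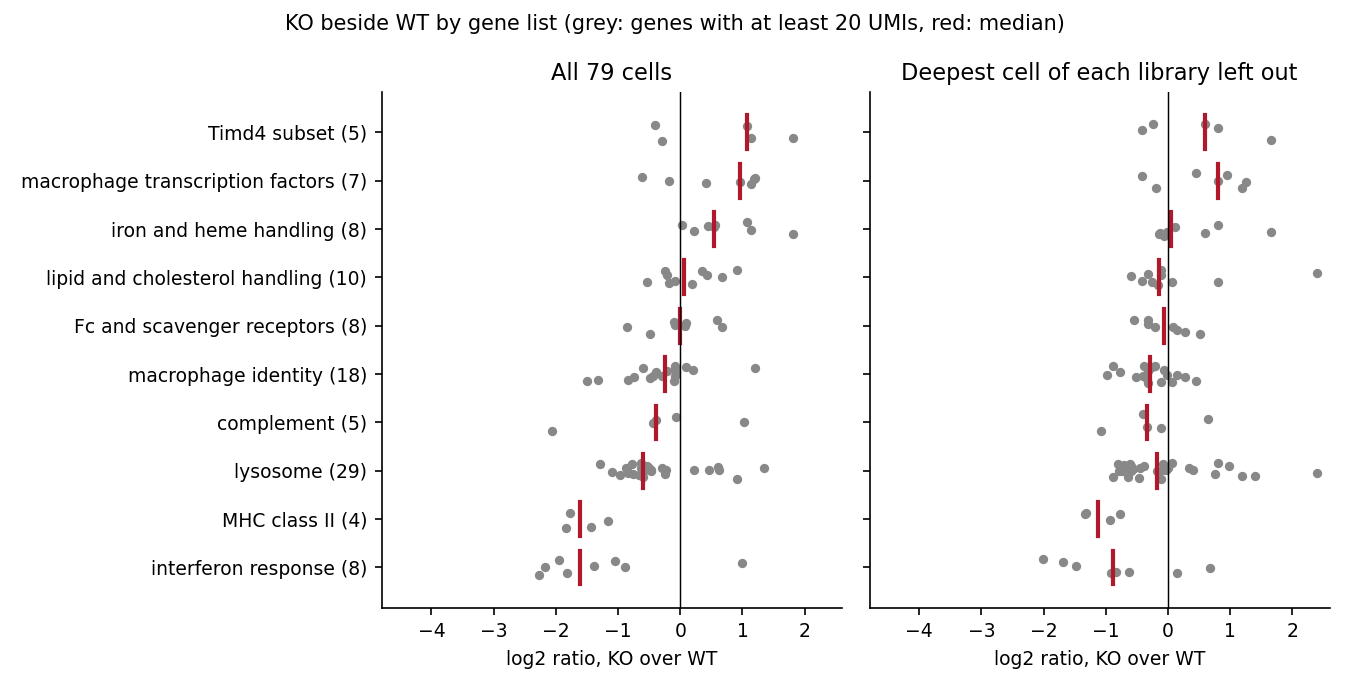
Log2 ratio of KO over WT for the genes of 10 lists with at least 20 UMIs (grey points, number in brackets) and their medians (red), for all 79 cells (left) and without the deepest cell of each library (right). The class II and interferon medians lie at -1.61 on the left and at -1.13 and -0.88 on the right, and the iron median moves from 0.55 to 0.05.

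Of the 10 genes with the lowest ratios among those with at least 50 UMIs, 3 were class II genes (H2-Aa, Cd74, H2-Ab1). Timp2, an inhibitor of matrix proteases, had 90 UMIs in WT and 42 in KO (-1.84, -2.42 to -1.31), with 55 of the WT UMIs in the deepest cell. H2-K1, of MHC class I, had 117 and 72 (-1.45, -1.90 to -1.02), and Ifi30, a lysosomal reductase, 69 and 40 (-1.53, -2.14 to -0.96). The deepest WT cell held 62 of the H2-K1 and 39 of the Ifi30 UMIs. Without the deepest cells the ratios were -1.07 (-1.79 to -0.35) for Timp2, -0.77 (-1.30 to -0.23) for H2-K1 and -0.81 (-1.55 to -0.06) for Ifi30. Ear2, a ribonuclease, had 30 and 20 (-1.33, -2.23 to -0.47) and kept its ratio without the deepest cells, at -1.64 (-2.60 to -0.74). Bst2, Mpeg1 and Psap completed the 10. Without the deepest cells the interval included 0 for Bst2 and for Mpeg1 (-0.77, -1.65 to 0.14).

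Of the 10 genes with the highest ratios, S100a9, S100a8, Retnlg, S100a11 and S100a6 came from the granulocyte-like cell, which held 57 of the 59 S100a11 UMIs and all 81 KO UMIs of S100a6. The others described here were Slc40a1, Hpgd, Tln1 and Tomm7. Hpgd, which inactivates prostaglandins, had 25 UMIs in 13 WT cells and 104 in 31 KO cells, or 591 and 1459 CPM (1.28, 0.66 to 2.00), and 0.66 (0.02 to 1.38) without the deepest cells. In cells thinned to 1000 UMIs it was at -0.23. Tln1, the integrin adaptor talin, had 11 and 41 UMIs (1.10, 0.16 to 2.25), and Tomm7 11 and 40 (1.06, 0.12 to 2.22). Among these 4, the interval without the deepest cells stayed above 0 for Slc40a1 and Hpgd.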

How the data were processed

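Thymus cells of 1 pooled WT and 1 pooled KO library were prepared on the 10x Genomics 3′ platform. Per the submitters' processing notes, reads were processed with Cell Ranger 3.0.2 and STAR on mm10 and cells with Seurat. According to the methods, cells were kept with 200 to 6000 genes and up to 50000 reads. The UMI counts per gene and cell that the authors deposited are not normalized, and a second deposited table holds the cluster of every cell. The libraries held 29706197 (WT) and 37920214 (KO) UMIs, which sets the counting precision. Doublets were not removed in the main values. Whether the authors removed them is not given in the sources used here.

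Members were taken by cluster number and library from the cell names. UMIs were summed per library and given as CPM, and cells were also averaged as UMIs per 10000. Intervals are Poisson, conditional binomial or Clopper-Pearson (Python 3.11.15, scipy 1.17.1). Alternatives used TMM factors of edgeR 4.0.16, size factors of DESeq2 1.42.0 and the top 6% of Scrublet scores (332 WT and 392 KO cells; its automatic limit marked 2 and 0). Named genes are those of the 27 lists, the 20 leading genes, Cdc42, and the 10 highest and 10 lowest log2 ratios among genes with at least 50 UMIs. The members and lists were chosen with earlier results of these data known. The script was tested on simulated data. Of 440 list genes, 410 were in the matrix. Gene positions are from the GRCm38 annotation. Some items are not reported here.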

Additional observations from a re-analysis of the deposited data

How the results depend on the processing

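No paired analysis was possible because each condition has 1 pooled library. A value was counted as moved when it differed from that over all cells by more than its counting interval allows, and the causes were not tested. For a list median no interval was computed. The interval of the list's summed UMIs was used in its place, or a fixed minimum where that was larger. The log2 ratio of the KO over the WT share of cells, 0.40, was between 0.24 and 0.45 under its 5 alternatives. The macrophage identity list, at 540 UMIs per 10000 as a mean over cells, was at 506 in summed UMIs and 488 in cells thinned to 1000 UMIs, which kept 10 WT and 13 KO cells. The thymocyte share was 0.239% in WT, and 0.326% at resolution 2, 0.186% as a median over cells, 0.106% for the DP list alone and 0.144% without genes above 15% of the DP level. In KO it was 0.536%, and 0.677% and 0.306% in cells thinned to 1000 and 500 UMIs, 0.184% as a median, 0.229% for the DP list, 0.469% without genes above 15% and 0.287% without the richest cell. The KO over WT median of the macrophage identity list, -0.25, was -0.14 at resolution 2, -0.079 with TMM factors, -0.083 with DESeq2 factors and -0.061 in cells thinned to 1000 UMIs. These factors moved the median of all genes from 0.02 to 0.19. The class II median, -1.61, was -1.13 without the deepest cells and -0.87 in cells thinned to 1000 UMIs. The iron median, 0.55, was 0.78 without cells over 10% mitochondrial UMIs, 0.049 without the deepest cells, 0.66 at resolution 2, 0.67 without the granulocyte-like cell, 0.72 with TMM, 0.71 with DESeq2, 0.42 as means over cells, and 0.32 and 0.35 in cells thinned to 1000 and 500 UMIs. Among single genes and other lists, 29 of 437 values changed sign. For genes whose interval excludes 0 these were S100a8, S100a9 and Retnlg (-0.63 each) and S100a6 (-2.95) without the granulocyte-like cell, Cd4 without the deepest cells (0.13) and at 500 UMIs (0.21; another draw left 7 WT and 3 KO UMIs), Hpgd (-0.23) and Lyz2 (0.061) at 1000 UMIs, and Tln1 (-0.080) at 500 UMIs. The other 20 were Apoe (4, up to 0.087), C1qb (5, up to 0.0999), the lists of lipid genes (3, down to -0.14) and transcription factors (-0.62 with at least 1 UMI), and the median of all genes (7, down to -0.14). Leaving out the granulocyte-like cell, the deepest WT cell (for Cd4) or the richest cell, and thinning to 500 UMIs, were chosen after seeing the data.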
